A study of Homo sapiens with 24 samples.

Results

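The comparison set untreated P493 cells 24 h after release against untreated P493 cells at 0 h, across every gene detected on the arrays. Its members were the 6 arrays labelled with no treatment and a release time of 24 h or 0 h, 3 for each time, out of 24 arrays in the series, and 10246 genes were tested. P493 is a human B cell line that carries a MYC transgene under a tetracycline-repressible promoter. The other arrays held untreated cells at 4 h and 8 h and cells given MST-312, a telomerase inhibitor, at the same 4 times. The series text describes tetracycline (TET) for 48 h and a move to medium without it for the MST-312 cells. When untreated cells had tetracycline is not stated in these labels, and their times are taken as labelled. The labels do not say whether the 3 arrays of a group came from separate cultures, so the spread between them may be technical. The p-values measure that spread, pooled over the groups of all 24 arrays.

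MYC is a transcription factor that pairs with MAX and binds the E-box, a short DNA motif found before many genes of cell growth. In B cells it is known to raise the genes for ribosome assembly, nucleotide synthesis and nutrient uptake and to drive cells out of rest into DNA replication. P493 cells without MYC stop dividing and take on features of resting B cells, and the return of MYC restarts growth.

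Levels are normalised log2 intensities, so a difference of 1 is 2-fold, and every change is the 24 h mean minus the 0 h mean with its standard error. A gene was taken as changed at a Benjamini-Hochberg adjusted p below 0.05 in limma's moderated test (two-sided, over all 10246 genes). In all, 6101 genes (59.5%) passed that test, of which 2973 were higher at 24 h (29.0% of genes tested) and 3128 lower (30.5%). Most of these changes were small, with 4455 of the changed genes differing by less than 2-fold. At 2-fold or more, 744 genes were higher (7.26%) and 902 lower (8.80%). All 3 arrays at 24 h lay above all 3 at 0 h for 31.7% of genes and below them for 33.7%. The median change over all genes was -0.02, and the middle 90% of genes lay between -1.29 and 1.15. A list of genes is described below by its counts and median beside these background shares. Where arrays were scaled to equal medians instead of quantile-normalised, the median over all genes was 0.08 and the changed genes split into 3452 higher and 2312 lower (59.9% higher, against 48.7%).

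The mean raw intensity per array lay between 628 and 764 at 24 h and between 527 and 643 at 0 h, with 16346 to 17696 and 17089 to 17209 of 47322 probes detected. Arrays of a group correlated at 0.991 to 0.994 over the probes kept. Among B cell markers, 8 of 9 measured genes were detected on all 6 arrays, CD79A, CD79B and MS4A1 among them, while PAX5 was detected on none. No T cell marker of 14 was detected on all 6 arrays. On none were 6 of them detected, CD3E, CD4 and CD5 included, and the rest were detected on 1 to 5 arrays. In RNA from a whole culture, fewer cells of a kind and less RNA per cell cannot be told apart.

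**Figure D1:**
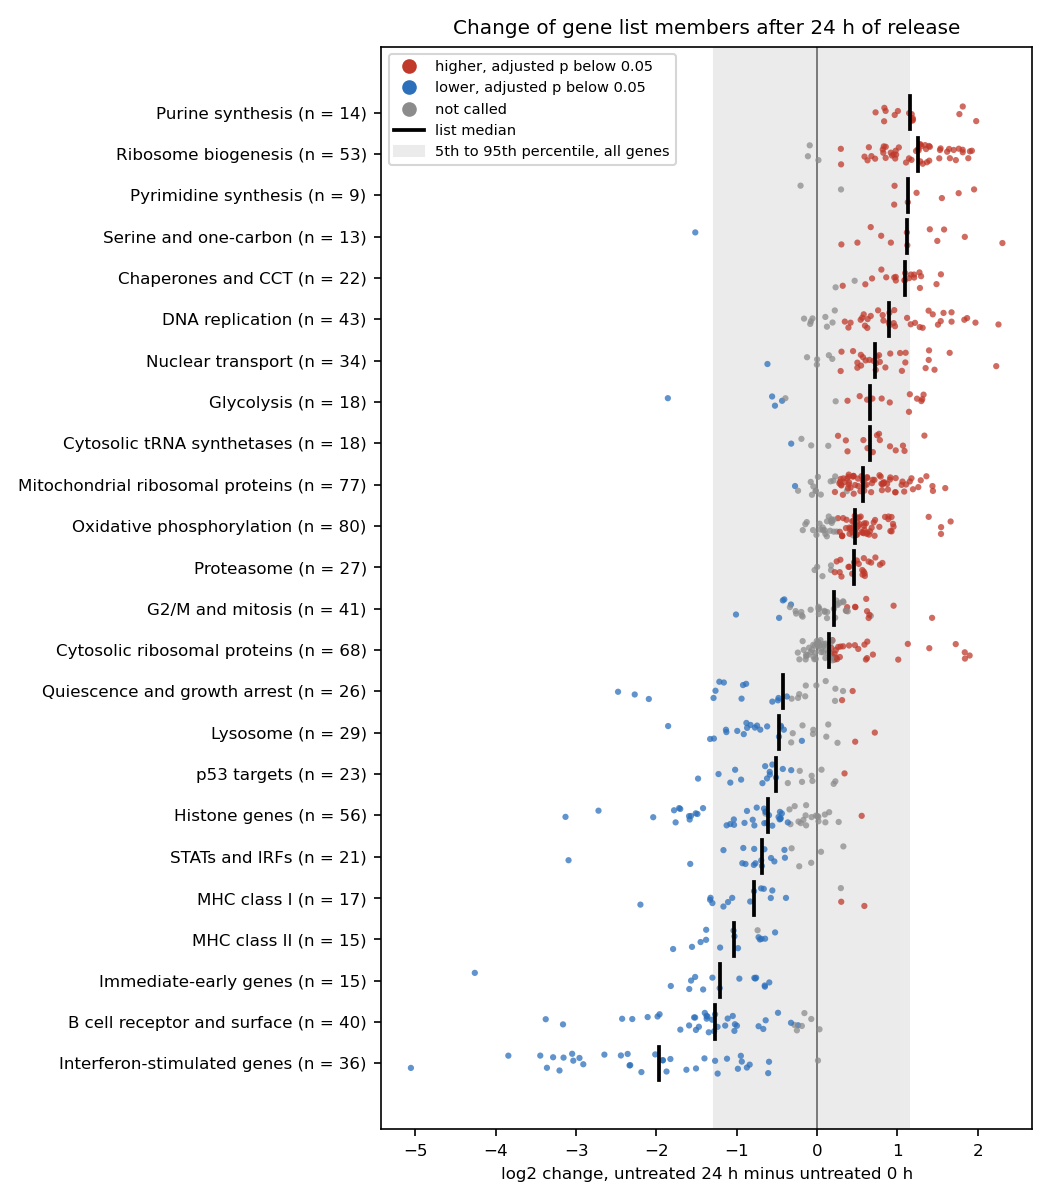
Each point is a gene of a named list, placed by its log2 change (untreated 24 h minus untreated 0 h). Red points were higher and blue points lower at an adjusted p below 0.05, grey points were not called, black bars are list medians, and the shaded band holds the middle 90% of all genes tested. Purine synthesis, pyrimidine synthesis and ribosome biogenesis had medians of 1.16, 1.13 and 1.26, and interferon-stimulated genes had a median of -1.97.

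MYC itself was brighter at 24 h. Its level was 14.91, 14.57 and 14.80 on the 24 h arrays, against 14.18, 13.98 and 14.01 on the 0 h arrays, and the groups did not overlap. The rise was 0.70 ± 0.10 (adjusted p = 5.77e-06), a 1.63-fold difference, and a second MYC probe rose by 1.05. The level was already higher at 4 h (14.85 ± 0.15, SD, n = 3) and at 8 h (14.99 ± 0.05, SD, n = 3) than at 0 h, and the 24 h mean did not differ detectably from the 8 h mean (change -0.24, adjusted p = 0.0946). MYC was bright at 0 h too, with a mean raw intensity of 29803 at 24 h and 15803 at 0 h. Whether the probes separate the transgene from the cell's own MYC was not analysed here. Other partners of MAX moved in both directions. MXD3, a MAX partner that represses E-box genes, was not detected on any 24 h array and was at least 2.69-fold lower. MXD4 fell by 0.69, and MGA, a large MAX partner, rose by 1.01. MAX did not pass the test (-0.14, adjusted p = 0.316), although another of its probes gave -0.97.

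Genes for ribosome assembly rose together. Of 53 tested members of that list, 50 were higher and none lower at 24 h, and 32 rose by 2-fold or more, with a list median of 1.26. The list spans transcription by RNA polymerase I, modification of ribosomal RNA and assembly of both subunits. NOLC1, a nucleolar phosphoprotein that carries small nucleolar ribonucleoproteins, had levels of 9.47, 9.60 and 9.43 at 24 h, against 7.78, 7.60 and 7.47 at 0 h. Every 24 h array was above every 0 h array, and the rise was 1.88 ± 0.11 (adjusted p = 7.58e-12). RRP1B and RRS1, both needed for processing or assembly of the large subunit, rose by 1.93 ± 0.14 and 1.90 ± 0.08. WDR12 and NOP16 rose by 1.81 each, and RRP12, which serves export of the small subunit, rose by 1.73 ± 0.11. Core nucleolar proteins also rose, with NCL (nucleolin) at 1.26 and FBL (fibrillarin, the methyltransferase of box C/D particles) at 1.28. The members that did not pass the test were DDX52 (-0.11), TAF1D (-0.09) and UBTF (0.02), and UBTF is the DNA-binding factor of RNA polymerase I.

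The E-box that MYC and MAX bind, CACGTG, was looked for in promoter windows from RefSeq (250 bases before to 50 after the start, both strands, GRCh38.p14), which were held for 8244 of the 10246 genes. It was present in 16 of 44 windows of the ribosome assembly list (36.4%), in 10.7% of windows of all genes tested and in 7.26% of all 35116 windows. The share was 18.0% among genes that rose by 2-fold or more, 9.01% among genes that fell by as much and 9.89% among genes that did not pass the test. Purine synthesis genes held the E-box in 2 of 12 windows (16.7%) and pyrimidine synthesis genes in 2 of 9 (22.2%). The share was below that of all genes tested for mitochondrial ribosomal proteins (6 of 69, 8.7%) and cytosolic ribosomal proteins (3 of 58, 5.17%). A match is a run of letters and not a measured binding site. The 250 bases before the start are shown for 3 changed genes with the motif there, UTP20 and NAT10 of this list and PPAT of purine synthesis, with the motif in capitals. They were taken by fitted change among the windows considered, and the fitted change of UTP20 rests on a 0 h level below background. The windows lie at chr12:101279855-101280104 on the plus strand, chr11:34105379-34105628 on the plus strand and chr4:56435616-56435865 on the minus strand, and the motif begins 10, 15 and 182 bases before the start.
UTP20: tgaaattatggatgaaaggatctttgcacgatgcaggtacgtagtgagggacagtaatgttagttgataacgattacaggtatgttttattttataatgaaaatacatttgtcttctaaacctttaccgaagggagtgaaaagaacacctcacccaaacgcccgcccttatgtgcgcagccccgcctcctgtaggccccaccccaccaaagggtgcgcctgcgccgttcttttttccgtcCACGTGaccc
NAT10: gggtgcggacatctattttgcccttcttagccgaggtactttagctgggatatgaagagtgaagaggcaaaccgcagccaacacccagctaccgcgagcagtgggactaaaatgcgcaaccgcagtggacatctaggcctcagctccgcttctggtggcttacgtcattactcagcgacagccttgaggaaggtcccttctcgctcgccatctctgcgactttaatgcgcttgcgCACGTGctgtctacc
PPAT: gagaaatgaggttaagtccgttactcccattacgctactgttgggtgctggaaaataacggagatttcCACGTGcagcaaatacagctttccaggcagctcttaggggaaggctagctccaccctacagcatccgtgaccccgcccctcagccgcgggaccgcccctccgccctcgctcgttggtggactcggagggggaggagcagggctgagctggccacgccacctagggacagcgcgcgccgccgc

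UTP20 encodes a component of the small-subunit processome and NAT10 an acetyltransferase of ribosomal RNA. They were chosen for the motif and not by the rule for named genes. NAT10 had levels of 11.34, 11.29 and 11.55 at 24 h, against 10.28, 10.33 and 10.13 at 0 h (rise 1.15 ± 0.11, adjusted p = 1.22e-08). UTP20 was not detected on any 0 h array and was at least 1.78-fold higher at 24 h (adjusted p = 1.62e-05).

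Enzymes that make purines rose without exception among the 14 tested (median 1.16), and 9 rose by 2-fold or more. PFAS, an early enzyme of the purine ring, had levels of 11.16, 11.07 and 11.24 at 24 h, against 9.06, 9.25 and 9.20 at 0 h, a rise of 1.98 ± 0.07 (adjusted p = 2.65e-14). PPAT, which catalyses the committed step, rose by 1.81 ± 0.10. PAICS rose by 1.77 ± 0.09, although another of its probes gave 0.40. Of 9 pyrimidine genes, 7 rose. CTPS1, which makes CTP, rose by 1.76 ± 0.09 and CAD, which starts the pyrimidine ring, by 1.13 ± 0.14, and CTPS2 (-0.20, adjusted p = 0.0734) and CMPK1 (0.30, adjusted p = 0.0917) did not pass. Both were near the threshold: with array weights they passed (adjusted p = 0.0292 for CTPS2 and 0.0367 for CMPK1), as they did without 0 h replicate 3 (0.0139 and 0.0237). Without 24 h replicate 1 CTPS2 passed (adjusted p = 0.0461), and CMPK1 passed with median scaling (change 0.50, adjusted p = 0.00562). NME1, a nucleoside diphosphate kinase, rose by 1.96 ± 0.09, and its close paralog NME2 by 0.96 ± 0.12. Their transcripts are alike, so the probes may not separate them.

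Supply of serine and 1-carbon units followed the same direction, with 12 of 13 genes higher. PSAT1, an enzyme of serine synthesis, had levels of 9.87, 9.79 and 9.87 at 24 h, against 7.60, 7.54 and 7.47 at 0 h (rise 2.31 ± 0.09, adjusted p = 2.65e-14). The mitochondrial folate enzymes MTHFD1L and MTHFD2 rose by 1.84 ± 0.09 and 1.58 ± 0.09. The exception was AMT, a part of the glycine cleavage system, which fell by 1.52 ± 0.15. Amino acid carriers divided: SLC7A1, a cationic amino acid carrier, rose by 2.04 ± 0.10 and SLC7A5, the light chain of a leucine carrier, by 2.02 ± 0.11, among 7 of 10 that rose, while SLC7A6 fell by 0.87 and SLC38A1 fell by 0.60 among the other 3. The call for SLC38A1 was lost with median scaling (change -0.36, adjusted p = 0.148) and without 24 h replicate 3 (change -0.48, adjusted p = 0.0662). For SLC7A5 the levels were 11.74, 11.47 and 11.65 at 24 h, against 9.65, 9.55 and 9.62 at 0 h.

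In the polyamine list, the biosynthetic enzymes SRM (1.54 ± 0.14) and AMD1 (1.38 ± 0.14) rose together with ODC1 (0.91 ± 0.10), the first enzyme of the pathway and a textbook MYC target. SAT1, the acetyltransferase that sends polyamines to breakdown and export, had levels of 9.82, 9.88 and 9.90 at 24 h, against 12.09, 12.09 and 12.14 at 0 h, a change of -2.24 ± 0.07 (adjusted p = 1.24e-15). Glycolytic genes rose in 12 of 18 cases, led by LDHA (1.33 ± 0.08), LDHB (1.31 ± 0.08) and PFKM (1.30 ± 0.12). The glucose transporter SLC2A3 went the other way and fell by 1.86 ± 0.10.

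Genes of protein synthesis, respiration and folding were measured next. Mitochondrial ribosomal proteins were higher for 64 of 77 genes and lower for 1, with a median of 0.57, and oxidative phosphorylation genes, assembly factors included, for 56 of 80 with a median of 0.47. Cytosolic ribosomal proteins were higher for 27 of 68 (39.7%, against 29.0% of all genes), with a median of 0.15 and none lower. That count depended on the scaling, since cyclic loess gave 15 higher and 19 lower with a median of 0.03. A few of those probes rose far more than the rest, such as RPS7 (1.84 ± 0.07) and RPL29 (1.84 ± 0.09). Such genes have many near-identical processed copies, so single probes are uncertain. Chaperones rose in 20 of 22 cases with a median of 1.09, among them CCT4 (1.49 ± 0.11), a subunit of the cytosolic chaperonin, and HSPA8 (1.30 ± 0.10). HSPA1B, which is nearly identical to a neighbouring copy, rose by 1.54 ± 0.14. Nuclear transport genes rose in 28 of 34 cases, with the nucleoporin NUP35 highest at 2.23 ± 0.10, proteasome genes in 22 of 27 and cytosolic tRNA synthetases in 14 of 18.

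**Figure D2:**
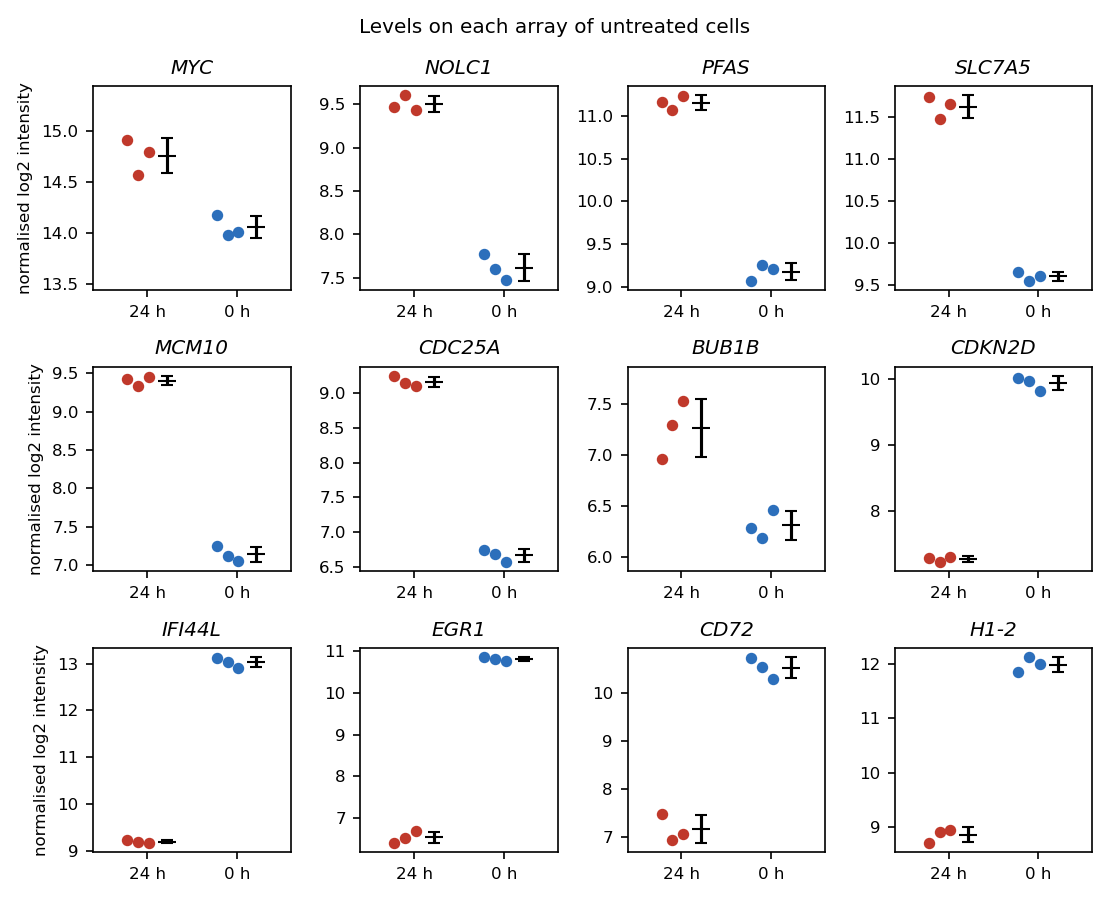
Normalised log2 intensity of 12 genes on each of the 3 arrays of untreated cells at 24 h (red) and at 0 h (blue), with the mean and SD as black bars. The groups do not overlap in any panel: levels at 24 h are above those at 0 h for MYC, NOLC1, PFAS, SLC7A5, MCM10, CDC25A and BUB1B, and below them for CDKN2D, IFI44L, EGR1, CD72 and H1-2.

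DNA replication genes rose late. Of 43 tested, 35 were higher at 24 h and none lower, with a median of 0.89 and 16 at 2-fold or more. MCM10, which helps to activate the replicative helicase, had levels of 9.42, 9.33 and 9.45 at 24 h, against 7.25, 7.12 and 7.05 at 0 h (rise 2.26 ± 0.19, adjusted p = 3.13e-09). The helicase partners GINS2 and CDC45 rose by 1.97 ± 0.13 and 1.83 ± 0.10, the helicase subunits MCM4 and MCM6 by 1.67 ± 0.10 and 1.58 ± 0.10, and the clamp loader subunit RFC3 by 1.68 ± 0.14. The list medians at 4 h and 8 h were -0.05 and -0.12 against the same 0 h arrays, and those for ribosome assembly were 0.77 and 1.07. Tested directly, 34 of the 43 replication genes were higher at 24 h than at 8 h (12.7% of all genes were) and none lower, while 3 of the 53 ribosome assembly genes were higher and 3 lower. The comparisons at 4, 8 and 24 h share the 0 h arrays. MCM10 was 2.44 higher at 24 h than at 8 h (adjusted p = 7.57e-09), and CDC45 lay below its 0 h level at 4 h (-0.86) and at 8 h (-0.77) before its rise.

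Of the repair and checkpoint genes, 18 of 24 were higher and 2 lower. EXO1, a 5′ exonuclease, rose by 2.38 ± 0.14 (1.14 on another probe) with changes of -0.20 at 4 h and 0.02 at 8 h, and the checkpoint kinase CHEK1 by 1.86 ± 0.14. UHRF1, which guides maintenance DNA methylation, rose by 1.86 ± 0.16. Of the 9 genes of deoxynucleotide supply, 6 rose, with the subunit RRM2 of ribonucleotide reductase undetected on every 0 h array and at least 1.69-fold higher at 24 h. Upstream of replication, the phosphatase CDC25A, which activates CDK2, had levels of 9.25, 9.15 and 9.11 at 24 h, against 6.74, 6.68 and 6.57 at 0 h (rise 2.50 ± 0.16, adjusted p = 7.09e-11), and its other probe rose by 1.03. The list of G1 cyclins, CDKs and CDK inhibitors was mixed, with 6 of 13 higher, 3 lower and a median of 0.14. Within it CDK4 and CDK6 rose by 1.31 ± 0.09 and 1.22 ± 0.10. CDKN2D, an inhibitor of both kinases, had levels of 7.28, 7.22 and 7.29 at 24 h, against 10.02, 9.98 and 9.83 at 0 h, a change of -2.68 ± 0.10 (adjusted p = 2.65e-14), and CDKN1A (p21) fell by 1.02 ± 0.12. In the list of E2F factors and pocket proteins 6 of 11 were higher and 1 lower (54.5% and 9.09%, against 29.0% and 30.5% of all genes), with a median of 0.41. The lower one was RBL2, a pocket protein of resting cells, which fell by 0.64. E2F1 did not pass the test (0.70, adjusted p = 0.129), though it did in a fit of the 6 arrays alone (adjusted p = 0.0455).

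The E2F motif, TTTCGCGC or TTTGGCGC on either strand, was present in 8 of 36 windows of the replication list (22.2%) and in 2.33% of windows of all genes tested. Its share was 3.03% among genes that rose by 2-fold or more and 1.43% among genes that fell by as much. The window of MCM6 is shown as that of a changed member with the motif before the start, taken by fitted change among the windows considered. It lies at chr2:135876444-135876693 on the minus strand and holds 2 matches, in capitals, the first of them 152 bases before the start.
MCM6: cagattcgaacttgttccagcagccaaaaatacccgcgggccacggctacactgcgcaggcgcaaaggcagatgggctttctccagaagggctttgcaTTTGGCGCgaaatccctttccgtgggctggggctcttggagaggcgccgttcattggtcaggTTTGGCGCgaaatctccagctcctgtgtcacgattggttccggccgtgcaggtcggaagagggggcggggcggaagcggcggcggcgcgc

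Mitotic genes were measured beside these. Of 41 tested, 10 were higher and 5 lower (24.4% and 12.2%, against 29.0% and 30.5% of all genes), with a median of 0.21. The lower count was 1 with median scaling and 8 in a fit of the 12 untreated arrays, and without 0 h replicate 3 it was 3 and the median was 0.09. The list's medians at 4 h and 8 h were -0.19 and -0.36, and 22 of 41 were higher at 24 h than at 8 h with none lower. The spindle checkpoint protein MAD2L1 rose by 1.43 ± 0.13. BUB1B, its partner in the checkpoint complex, had levels of 6.96, 7.30 and 7.53 at 24 h, against 6.28, 6.19 and 6.46 at 0 h (rise 0.95 ± 0.27, adjusted p = 0.00404). CDK1 rose by 0.61 ± 0.18, and CDC25B, a phosphatase that activates it, fell by 1.01 ± 0.17. The CHR motif, TTTGAA on either strand, was present in 25 of 35 windows of this list (71.4%) and in 10.1% of windows of all genes tested. Its share was much the same among genes that rose by 2-fold or more (9.92%) and genes that fell by as much (10.0%). The CCAAT box was present in 80.0% of the list's windows and 38.0% of all. The BUB1B window is shown for its CHR match, in capitals, which begins 23 bases before the start. It lies at chr15:40160819-40161068 on the plus strand.
BUB1B: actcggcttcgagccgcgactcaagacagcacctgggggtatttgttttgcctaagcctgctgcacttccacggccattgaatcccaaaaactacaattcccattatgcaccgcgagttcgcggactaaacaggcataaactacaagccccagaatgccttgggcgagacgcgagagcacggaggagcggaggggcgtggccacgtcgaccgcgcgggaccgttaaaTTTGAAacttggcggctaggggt

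**Figure D3:**
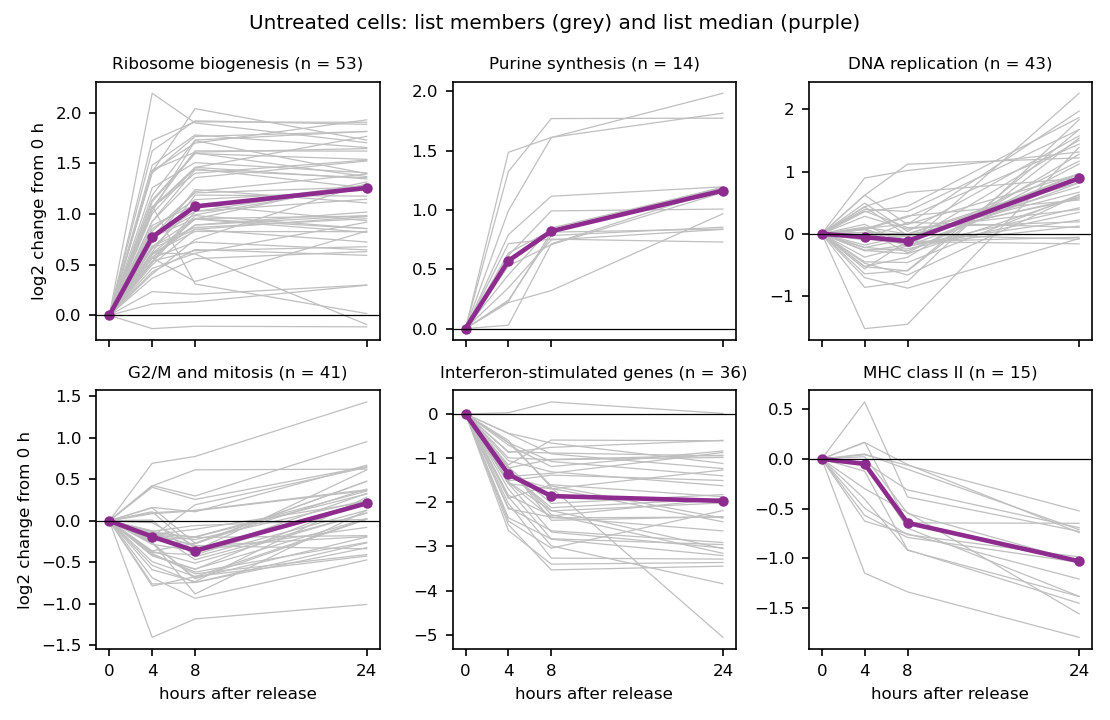
Log2 change from 0 h in untreated cells at 0, 4, 8 and 24 h after release, for single list members (grey lines) and the list median (purple line), with hours on the x axis. All times share the 3 arrays at 0 h. The ribosome biogenesis median was 1.07 at 8 h and 1.26 at 24 h, the DNA replication median was -0.12 at 8 h and 0.89 at 24 h, and interferon-stimulated genes had a median of -1.37 at 4 h.

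Interferon-stimulated genes had the lowest median of the 53 lists examined. These are genes that infected or interferon-treated cells raise to block viruses. Of 36 tested, 35 were lower at 24 h, none were higher, and 28 fell by 2-fold or more, with a median of -1.97. PLSCR1 was the member that did not pass (0.01). IFI27 had levels of 5.24, 5.54 and 5.33 at 24 h, where no array detected it, against 10.43, 10.55 and 10.31 at 0 h, and was at least 23.7-fold lower at 24 h (adjusted p = 8.36e-19). IFI44L had levels of 9.22, 9.19 and 9.16 at 24 h, against 13.13, 13.04 and 12.92 at 0 h, a change of -3.84 ± 0.08 (adjusted p = 4.01e-18). For both genes the groups were far apart beside the spread within each.

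MX1, a GTPase that blocks viral replication, had levels of 11.12, 10.96 and 11.13 at 24 h, against 14.38, 14.42 and 14.28 at 0 h (change -3.29 ± 0.14, adjusted p = 8.37e-14). IFIT3 fell by 3.45 ± 0.15, the antiviral synthetase OAS3 fell by 3.21 ± 0.14 and the ubiquitin-like modifier ISG15 fell by 2.33 ± 0.11. Much of the fall was present early, with list medians of -1.37 at 4 h and -1.86 at 8 h against the same 0 h arrays. IFI27 differed in this, at -0.60 at 4 h and -1.67 at 8 h. Among the factors that carry interferon signals, IRF7 fell by 3.09 ± 0.15 and IRF9, the DNA-binding subunit of the complex that switches these genes on, fell by 1.58 ± 0.11. In the list of STAT, IRF and receptor genes 16 of 21 were lower and none higher. IFNAR1, a chain of the type I interferon receptor, did not pass (-0.22), and IFNAR2 fell by 0.92 ± 0.23.

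The interferon-stimulated response element, searched on either strand as GAAA, any 2 bases and GAAA again, was present in 21 of 29 windows of the interferon list (72.4%), 3.08% of windows of all genes tested and 8.44% of windows of genes that fell by 2-fold or more. The windows of IFI27 and IFI44L are shown as those of 2 large falls with the motif before the start, taken in the same way. They lie at chr14:94110486-94110735 and chr1:78620198-78620447, both on the plus strand, with 2 matches each in capitals, the first 108 and 164 bases before the start.
IFI27: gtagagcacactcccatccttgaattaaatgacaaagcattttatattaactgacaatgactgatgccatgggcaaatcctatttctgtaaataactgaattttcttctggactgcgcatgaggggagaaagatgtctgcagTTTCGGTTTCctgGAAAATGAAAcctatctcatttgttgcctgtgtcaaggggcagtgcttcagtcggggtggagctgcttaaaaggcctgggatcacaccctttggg
IFI44L: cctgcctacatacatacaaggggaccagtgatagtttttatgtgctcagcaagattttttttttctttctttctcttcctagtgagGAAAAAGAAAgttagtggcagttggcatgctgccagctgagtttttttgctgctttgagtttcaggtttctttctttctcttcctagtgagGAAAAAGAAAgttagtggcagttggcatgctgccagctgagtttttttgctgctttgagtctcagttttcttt

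Genes of antigen presentation fell as well. In the class II list 14 of 15 genes were lower and none higher, with a median of -1.03. HLA-DOB and HLA-DOA, which modulate peptide loading, changed by -1.79 ± 0.17 and -1.56 ± 0.11, and HLA-DMB, a catalyst of loading, fell by 1.21 ± 0.09. The class II regulator CIITA fell by 0.73 and the invariant chain CD74 fell by 0.71. The HLA-DRB genes resemble each other closely, and another probe of HLA-DRB4 gave 0.22 where the brightest fell by 1.38. The class II list medians were -0.05 at 4 h and -0.64 at 8 h. In the class I list 14 of 17 were lower, with HLA-E lowest (change -2.20 ± 0.12) and HLA-B (change -1.33 ± 0.13) among the others. The 2 that rose were the endoplasmic reticulum chaperones CANX (0.59 ± 0.09) and CALR (0.30).

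B cell surface genes were lower at 24 h for 34 of 40, with none higher, a median of -1.28 and 27 falls of 2-fold or more. CD72, an inhibitory co-receptor, had levels of 7.49, 6.94 and 7.06 at 24 h, against 10.74, 10.56 and 10.31 at 0 h (change -3.38 ± 0.24, adjusted p = 1.97e-10). FCRL5 fell by 3.16 ± 0.14, FCER2 (CD23) fell by 2.11 ± 0.08, and the activation marker CD69 fell by 2.30 ± 0.07. The receptor's signalling chains CD79B and CD79A changed by -1.53 ± 0.08 and -1.40 ± 0.09. Summed raw intensity over the B cell markers was 70390 to 82580 on the 24 h arrays and 100200 to 126900 on the 0 h arrays. In transcription factors of the lineage, POU2AF1 fell by 1.99 ± 0.09, SPIB fell by 1.27 ± 0.10 and EBF1 fell by 0.99 ± 0.08, while PRDM1, a factor of plasma cells, rose by 0.77 ± 0.18.

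Markers of other cell types were measured beside these falls. Over the plasma cell markers, 4 of 8 were higher and 1 lower (7 and 1 with median scaling). The largest rise was that of the secretory chaperone FKBP11 (1.74 ± 0.09), and the lowest change was -0.67. Their summed raw intensities were 20650 to 24340 at 24 h and 13220 to 16290 at 0 h. Of these sums, 1 marker that did not pass the test held a mean of 13380 at 24 h and 9835 at 0 h. Raw sums are not normalised, and mean raw intensity per array was 628 to 764 at 24 h and 527 to 643 at 0 h. For monocyte and macrophage markers the sums were 2692 to 3584 at 24 h and 4528 to 5326 at 0 h, with 4 of 12 genes detected on all 6 arrays and 4 on none. ITGAM fell by 2.39 ± 0.20 and LYZ fell by 1.61 ± 0.15 there. Of the tested T cell markers 2 of 4 were lower, as were 2 of 3 NK cell markers, with none higher in either list. Levels in both lists were mostly near background, with 0 of 14 T cell markers and 1 of 10 NK cell markers detected on all 6 arrays. In the epithelial and fibroblast list 2 of 6 tested genes were higher and 3 lower. The higher count was 1 under many of the alternatives run, among them the authors' processed values, the 6 arrays alone and array weights. The largest rise there was 2.14. The part of these cell types in the results was not tested.

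Immediate-early genes, which respond within minutes to receptor signals, were all lower at 24 h (15 of 15 tested, median -1.21). EGR1 had levels of 6.41, 6.54 and 6.69 at 24 h, against 10.85, 10.80 and 10.77 at 0 h, a change of -4.26 ± 0.12 (adjusted p = 4.14e-16). JUNB fell by 1.57 ± 0.16, FOS fell by 1.52 ± 0.14, and DUSP5, a phosphatase that turns off ERK in the nucleus, fell by 1.82 ± 0.08. Among NF-kB subunits and targets 14 of 21 were lower and 1 higher, with the chemokine CCL3 lowest (change -3.02 ± 0.14), NFKBIZ at -1.58 and NFKB2 at -1.12.

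Genes linked to rest, catabolism and cell death were mostly lower. In the quiescence list 14 of 26 fell and 2 rose, led by YPEL5 (change -2.48 ± 0.10) and TXNIP (change -2.27 ± 0.11), an inhibitor of thioredoxin and glucose uptake that belongs to the genes MYC is described to repress. Thioredoxin itself, TXN, rose by 1.41 ± 0.10. Lysosomal genes were lower for 19 of 29, with the cholesterol carrier NPC2 at -1.85 and the protease CTSB at -1.13, and p53 targets for 14 of 23, with DDB2 at -1.23. In the BCL2 family 10 of 14 fell. They include the killers HRK (change -1.86 ± 0.11) and BIK (change -1.59 ± 0.09) and the protectors BCL2L1 (change -1.22 ± 0.12) and MCL1 (change -1.11 ± 0.10). BID rose by 0.53.

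Histone genes were lower for 36 of 56 and higher for 1, with a median of -0.61. The linker histone H1-2 had levels of 8.70, 8.91 and 8.95 at 24 h, against 11.85, 12.12 and 11.99 at 0 h (change -3.13 ± 0.12, adjusted p = 2.02e-14), and H2BC5 fell by 2.04 ± 0.07. H3-3B, a replacement histone made outside S phase as well, fell by 1.78 ± 0.09. Most replication histone transcripts lack a poly(A) tail and many family members are near-identical, so single probes are uncertain. Small nucleolar RNAs, which guide modification of ribosomal RNA, were higher for 53 of 167 (31.7%) and lower for 21, beside 29.0% and 30.5% of all genes. Of the 167, 28 were undetected at 0 h only, 7 at 24 h only and 24 at both times. Changes of those rest on levels below background.

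MST-312 is directed at telomerase, and the list of telomerase and telomere proteins had 8 of 16 higher and 2 lower. Components of the telomerase ribonucleoprotein that also serve ribosome assembly rose, with DKC1 at 1.53 ± 0.08, NHP2 at 1.52 ± 0.09 and GAR1 at 1.29 ± 0.09. The shelterin protein TINF2 fell by 1.06 ± 0.10, and TERF1 (-0.43) and TERF2 (-0.06) did not pass the test. In a fit of the 6 arrays alone TERF1 passed (adjusted p = 0.0178).

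Among the 20 largest rises by the naming rule, 1 was on the replication list and none on the ribosome assembly list. The largest was KISS1R, the kisspeptin receptor, with 10.55, 10.73 and 10.60 at 24 h, against 7.61, 7.53 and 7.22 at 0 h (rise 3.17 ± 0.13, adjusted p = 6.37e-14). NEFH, the neurofilament heavy chain, rose by 2.89 ± 0.08 and was at 2.58 by 4 h. LIN28B, an RNA-binding protein that blocks maturation of let-7, was undetected on every 0 h array and was at least 2.71-fold higher at 24 h, and CD320, the receptor for vitamin B12 uptake, rose by 2.27 ± 0.15. Of the 20 largest falls, 7 were on the interferon list. The others included IRF7, given above among the factors that carry interferon signals. Also among them was CD1C, a lipid antigen-presenting molecule that no 24 h array detected (at least 8.09-fold lower). So were the integrin ITGAX (CD11c, at least 8.61-fold lower) and the immune checkpoint protein VSIR (change -3.24 ± 0.12).

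The same 24 h minus 0 h change was set against that of MST-312 cells, with the difference of the changes tested in the same fit. That difference passed for 3070 genes (30.0%), with the MST-312 change higher for 1490 (14.5%) and lower for 1580 (15.4%). MYC rose by 1.31 in MST-312 cells and by 0.70 in untreated cells, a difference of 0.60 ± 0.14 (adjusted p = 0.00355). Its levels in MST-312 cells were 15.25, 15.20 and 14.95 at 24 h and 13.88, 13.84 and 13.77 at 0 h.

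The ribosome assembly list had a median change of 1.04 in MST-312 cells and 1.26 in untreated cells, and the difference passed for 18 of 53 genes, 17 of them lower in MST-312 cells. DNA replication genes had a median of 0.06 in MST-312 cells and 0.89 in untreated cells, and 26 of 43 passed, all lower in MST-312 cells. At 0 h, 34 of the 43 were below their untreated level (median -0.45, MST-312 minus untreated). No MST-312 array at 24 h or 0 h detected 4 of the 43, so their change there has no measured size. GINS2 changed by -0.01 in MST-312 cells against 1.97 in untreated cells (difference -1.98, adjusted p = 8.56e-08). PSAT1 fell by 0.67 in MST-312 cells, with 9.35, 9.16 and 9.24 at 24 h and 9.90, 10.01 and 9.84 at 0 h, against the rise of 2.31 in untreated cells (difference -2.98 ± 0.12, adjusted p = 1.07e-12).

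Interferon-stimulated genes had a median change of -0.28 in MST-312 cells and -1.97 in untreated cells, and 33 of 36 differences passed, each higher in MST-312 cells. These genes began lower in MST-312 cells: at 0 h, 35 of the 36 were below their untreated level, by a median of 2.33 on the log2 scale (-2.33 as the MST-312 level minus the untreated level). MX1 had levels of 7.08, 6.79 and 7.16 at 24 h and 8.65, 8.81 and 8.71 at 0 h in MST-312 cells, below every untreated array. IFI27 was not detected on any MST-312 array at 24 h or 0 h, so its change there has no measured size, and EXO1 was likewise undetected there.

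**Figure D4:**
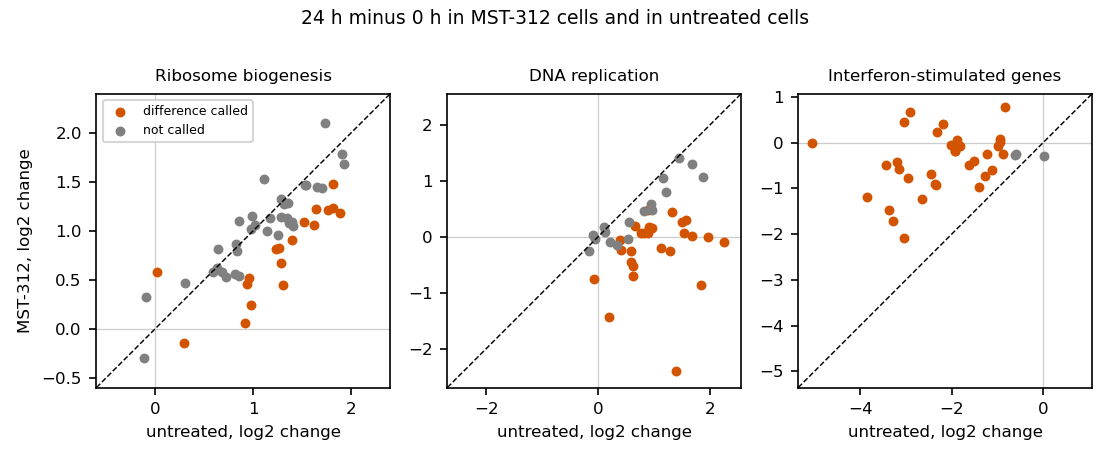
Log2 change, 24 h minus 0 h, of single genes in MST-312 cells (y axis) against untreated cells (x axis) for 3 lists. The dashed line marks equal change, and orange points had an adjusted p below 0.05 for the difference. Ribosome biogenesis genes lie near the line, most replication genes below it and interferon-stimulated genes above it.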

How the data were processed

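Whole-culture RNA of P493 cells was measured on Illumina bead arrays. Raw probe intensity was deposited, with a detection p-value per probe and array, per the file headers; a table of the authors' processed intensity matched quantile normalisation without background correction. Of 47322 probes, 30113 had 1 gene symbol, 8 had several and 17201 had none in the platform annotation, and 30074 of the named ones were matched by gene ID. With limma 3.58.1 in R 4.3.3, background was corrected by normexp on detection p-values (offset 16), arrays were quantile-normalised and values put on the log2 scale. A probe entered where some group had a detection p below 0.05 on each of its 3 arrays (17882 probes), and the brightest named probe stood for a gene. Group means of all 24 arrays were fitted in 1 model, with Benjamini-Hochberg adjustment over 10246 genes, and the script was tested on simulated data. For genes that no array of a group detected, "at least" folds set the other group's mean against the lowest detected signal or the probe's own, whichever was higher. No level of a probe is set against that of another. The number of arrays limits the precision.

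Named genes were MYC, the 20 largest non-overlapping rises and falls, and, per list, the 8 most changed members at most and as many as 3 opposite movers of 1.5-fold or more, of which the text gives a part. Named outside that rule, after their values were seen, were UTP20 and NAT10, the members that did not pass the test, and MAX, NCL, FBL, ISG15, CIITA, CALR and BID. The members and lists were chosen with earlier results of these data known. Promoter windows on chromosome 8 were not considered for printing. Alternatives were other background correction and normalisation, offset, detection filter, arrays fitted, probe rule, replicate block, prior, array weights, a 1.5-fold test and leaving out each array.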

Additional observations from a re-analysis of the deposited data

Results flagged for a closer look

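Among the 139 genes named in the report, the log2 change (24 h minus 0 h) differed between MST-312 cells and untreated cells for 81 that MST-312 cells also expressed above background (limma, interaction contrast, adjusted p below 0.05 over all genes). The difference, MST-312 minus untreated, was above 0 for 44 of them and below 0 for 37, beside 14.5% and 15.4% of all genes tested. Most of these genes were named for a large change in untreated cells, which is a term of the difference, so a larger share than among all genes is built in. In genes of ribosome assembly, translation, folding and nuclear transport, the difference was -0.70 for NOLC1, -0.58 for WDR12, -0.33 for NOP16, -0.61 for FBL, 0.56 for UBTF, -0.43 for NHP2, 0.42 for RPS7, -1.81 for HSPA1B and -0.81 for NUP35. In nucleotide and 1-carbon synthesis, the difference was -0.67 for PPAT, -0.53 for PFAS, -0.41 for PAICS, -0.65 for CTPS1, -0.85 for CTPS2, -0.84 for CMPK1, -0.40 for NME1, -0.58 for NME2, -2.98 for PSAT1, -0.85 for MTHFD1L, -1.17 for MTHFD2 and 1.03 for AMT. In nutrient uptake, glycolysis and polyamine genes, the difference was -1.45 for SLC7A1, -1.34 for SLC7A5, 0.64 for SLC7A6, 1.33 for SLC2A3, -0.53 for LDHB, -0.71 for PFKM, -0.56 for AMD1, 1.85 for SAT1 and -0.93 for CD320. In cell cycle, replication and telomere genes, the difference was -1.70 for CDC25A, 1.26 for CDKN2D, -1.98 for GINS2, -1.27 for MCM6, -1.66 for RFC3, -1.97 for UHRF1, -0.95 for CDK6, -2.28 for CDK1, 0.53 for RBL2, -0.83 for MAD2L1, 0.61 for TINF2 and -0.45 for TERF2. In the MYC network, the difference was 0.60 for MYC, 1.23 for MXD3 and -0.61 for MGA. In interferon and antigen presentation genes, the difference was 1.57 for MX1, 2.95 for IFIT3, 2.55 for ISG15, 1.96 for IRF7, 0.46 for IRF9, 0.75 for HLA-DOB, 0.70 for HLA-DOA, 0.86 for HLA-E, 0.94 for HLA-B, -0.54 for CANX and -0.45 for CALR. In genes of B cells and other blood cells, the difference was 0.88 for CD79A, 0.61 for CD79B, 1.06 for MS4A1, 0.54 for FCRL5, 0.45 for FCER2, 1.02 for CD69, 0.65 for SPIB, -0.82 for FKBP11, 1.04 for ITGAM and 2.41 for VSIR. In immediate-early and NF-kB genes, the difference was 2.63 for EGR1, 0.81 for JUNB, 1.39 for FOS, 1.78 for CCL3 and 0.57 for NFKBIZ. In genes of rest, lysosomes, cell death and chromatin, the difference was 0.76 for YPEL5, 0.93 for TXNIP, 0.76 for NPC2, 0.93 for CTSB, 1.03 for HRK, 0.77 for BIK, 0.69 for MCL1, 1.86 for H1-2, 0.97 for H2BC5 and 1.47 for H3-3B. MXD3 was not detected in untreated cells at 24 h, so its difference depends on a level below background.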

How the results depend on the processing

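Tested against a fold of 1.5 in place of 0, 861 genes were higher and 1029 lower at 24 h, and MYC kept its change of 0.70 without passing (adjusted p = 0.493). Under the other alternatives run, between 2755 and 3452 genes were higher and between 2312 and 3338 lower, with the ends of both ranges that lie far from 2973 and 3128 at median scaling (3452 and 2312) and cyclic loess (2872 and 3338). Leaving out each array in turn gave 2755 to 2808 higher genes, 2903 to 3001 lower genes and a MYC change of 0.63 to 0.80. Members near 0 turned sign without passing in either setting: with median scaling DDX52 was 0.0877, TAF1D 0.0472 and TERF2 0.0973. UBTF was -0.0302 with cyclic loess and -0.0293 with array weights, and TAF1D was 0.00 as a mean of probes. Over the arrays left out, UBTF lay between -0.11 and 0.10, PLSCR1 between -0.15 and 0.15, DDX52 between -0.23 and 0.068 and TAF1D between -0.21 and 0.0601. With no filter on dim probes the list medians of hypoxia targets (0.0206) and of epithelial and fibroblast markers (0.0463) turned positive, where 20046 genes were tested. For these the cause was not tested.

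With the replicate number as a block, 3096 genes were higher and 3295 lower over all 24 arrays, and 2946 and 3168 within the 6 arrays, with MYC at 0.70 in both (adjusted p = 9.04e-07 and 0.00142). Of the named genes, CTPS2 (adjusted p = 0.0424) and TERF1 (0.0443) passed with the block over all 24 arrays, and CMPK1 (0.0492), E2F1 (0.0437) and TERF1 (0.0342) within the 6 arrays, while no other named gene changed its call. The plasma cell marker list had 6 of 8 higher in both. Deviations of same-numbered arrays at 24 h and 0 h correlated at 0.20, -0.11 and 0.16, and 24 h replicate 2 correlated best with 0 h replicate 3, so the numbers were not taken to pair the arrays of this comparison. Over all groups, same-numbered arrays correlated at a median of 0.17 (-0.20 to 0.41, 84 pairs) and differently numbered ones at -0.09 (168 pairs), a hint from the data and not from the design. Probes near background carry little information on change: 331 genes were undetected at 24 h alone, 312 at 0 h alone and 182 at both times.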

Other observations

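Genes of several stress and metabolic programmes that the report does not describe were also measured at 24 h against 0 h in untreated cells. Of 17 genes of cholesterol synthesis and uptake, 10 were higher and 4 lower, with a median of 0.33. Endoplasmic reticulum chaperones and XBP1 targets, which fold secreted proteins, were higher for 11 of 17 and lower for 1. Targets of NRF2, the regulator of the oxidant response, were higher for 8 of 13 and lower for 1, with a median of 0.63. Hypoxia targets were higher for 2 of 14 and lower for 8, with a median of -0.52. In the ATF4 and CHOP list 6 of 15 were higher and 5 lower, and with median scaling 10 were higher and 4 lower. Shares among all genes tested were 29.0% higher and 30.5% lower.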
